A study of Mus musculus with 9 samples.

Results

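The 99 genes described here are the mouse genes for orphan and adhesion G protein-coupled receptors: every protein-coding gene whose GENCODE M21 symbol starts with Adgr, or with Gpr and a number, apart from 1 gene left out by the rule. They comprise 27 adhesion receptor genes and 72 genes with Gpr symbols, of 54752 genes in the count table. The rule rested on symbols and used no measured value, but it was chosen with earlier results of these data known. RNA was sequenced from B16F10, a mouse melanoma cell line, cultured in DMEM with 10% FBS. The 9 libraries formed 3 groups of 3. Tada2bsg1 (guide 1 below) and Tada2bsg2 (guide 2) were cells of 2 single guides for Tada2b, both given the genotype Tada2b knockout, and GFPsg were cells of a guide named for GFP, given the genotype WT. Tada2b encodes an adaptor protein of the histone acetyltransferase module of the SAGA coactivator complex. Whether a guide's cells were 1 clone or a pool was not given in the sources used here. The comparisons ask how the RNA levels of these genes stood in cells labelled Tada2b knockout relative to GFPsg cells, and whether both guides gave the same values. Tada2b RNA was 32.3, 33.3 and 32.7 CPM (a library's counts scaled to a total of 1 M, with trimmed mean of M-values factors) with guide 1, 29.0, 26.0 and 25.9 CPM with guide 2 and 28.0, 25.2 and 26.6 CPM in GFPsg, so its RNA level does not check the knockout labels, which are used here as given.

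G protein-coupled receptors cross the plasma membrane several times and pass the binding of a ligand on to heterotrimeric G proteins inside the cell. Orphan receptors are those with no agreed natural ligand, and their Gpr symbols are placeholders that also cover a few proteins of lysosomes and the Golgi apparatus that only resemble receptors. Adhesion receptors carry a long extracellular region, which in most members is cut by the protein itself close to the membrane and leaves a short tethered agonist. ADGRG1, also called GPR56, is the member best known from work on human melanoma cells.

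The DNA just upstream of the start is shown for the 3 largest called increases and the 3 largest called decreases that had a RefSeq promoter window of at least 200 bases outside the annotated exons of any gene. These are the positions around which transcription of the genes that changed most begins, 5′ to 3′ on the gene's strand, in GRCm38.p6 coordinates, with CG dinucleotides in capitals. Adgrv1 (chr13:81633155-81633394, minus strand), Adgra1 (chr7:139833924-139834173, plus strand) and Gpr153 (chr4:152273862-152274111, plus strand) were the genes with higher RNA in the knockout libraries. Gpr158 (chr2:21367317-21367541, plus strand), Gpr35 (chr1:92972869-92973118, plus strand) and Gpr180 (chr14:118136877-118137126, plus strand) had lower RNA there.

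Adgrv1: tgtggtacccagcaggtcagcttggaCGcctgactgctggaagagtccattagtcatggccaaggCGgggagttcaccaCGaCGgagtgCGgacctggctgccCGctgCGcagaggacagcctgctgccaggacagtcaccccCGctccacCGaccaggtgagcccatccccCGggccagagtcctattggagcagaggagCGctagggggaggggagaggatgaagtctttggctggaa

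Adgra1: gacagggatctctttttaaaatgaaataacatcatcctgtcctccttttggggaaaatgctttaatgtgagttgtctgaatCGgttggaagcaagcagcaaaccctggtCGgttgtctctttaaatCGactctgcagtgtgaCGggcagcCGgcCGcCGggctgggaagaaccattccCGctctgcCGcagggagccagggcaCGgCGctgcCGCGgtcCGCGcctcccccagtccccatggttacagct

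Gpr153: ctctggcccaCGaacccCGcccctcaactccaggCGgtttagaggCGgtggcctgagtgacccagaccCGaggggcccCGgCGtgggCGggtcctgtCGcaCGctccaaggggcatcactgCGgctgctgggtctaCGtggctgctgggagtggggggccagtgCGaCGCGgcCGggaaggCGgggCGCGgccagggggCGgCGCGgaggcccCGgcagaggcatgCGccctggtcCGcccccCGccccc

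Gpr158: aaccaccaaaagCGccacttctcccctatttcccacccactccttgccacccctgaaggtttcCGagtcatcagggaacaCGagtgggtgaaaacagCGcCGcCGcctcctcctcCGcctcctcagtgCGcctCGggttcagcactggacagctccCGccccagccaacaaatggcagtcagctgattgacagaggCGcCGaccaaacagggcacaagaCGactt

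Gpr35: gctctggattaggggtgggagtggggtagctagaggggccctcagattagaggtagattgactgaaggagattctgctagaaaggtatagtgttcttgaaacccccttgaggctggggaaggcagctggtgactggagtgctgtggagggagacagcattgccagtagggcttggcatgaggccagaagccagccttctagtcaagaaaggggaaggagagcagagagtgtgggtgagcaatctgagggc

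Gpr180: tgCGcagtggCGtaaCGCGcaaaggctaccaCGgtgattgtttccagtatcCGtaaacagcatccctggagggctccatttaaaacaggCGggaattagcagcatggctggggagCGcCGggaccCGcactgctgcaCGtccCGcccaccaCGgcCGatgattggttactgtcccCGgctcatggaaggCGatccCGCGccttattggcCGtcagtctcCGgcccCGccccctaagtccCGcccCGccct

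The 250 bases before the RefSeq start held 26 CG dinucleotides at Gpr153, 23 at Gpr180, 15 at Adgra1, 14 at Gpr158 and 11 at Adgrv1, and 0 at the first start of Gpr35. Over 32841 RefSeq windows of mouse genes the median was 6, with quartiles of 2 and 16. The window of Gpr35 thus lay below that median and the others above it. A second RefSeq start of Gpr35, at chr1:92978653-92978902, had 4 CG dinucleotides. The E-box CACGTG, the variant CATGTG and the AP-1 motif TGANTCA, each searched on both strands, occurred in 6.02%, 12.3% and 6.75% of all 250-base windows, and none of the 6 sequences shown held any of them, while the second Gpr35 window held 1 CATGTG and 1 TGANTCA. A RefSeq window was given for 72 of the 99 genes and not for Gpr137b.

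Most of the family had few or no reads in these cells. Of the 99 genes, 17 had 0 reads in all 9 libraries, which at this depth allows up to 0.00449 CPM over the 9 libraries, for counting error only. They included Adgrb1, a phagocytic receptor of the brain angiogenesis inhibitor group and Gpr6 and Gpr12, receptors that raise cAMP without a ligand. A further 26 genes had 1 to 20 reads over all libraries together, among them the macrophage marker Adgre1, with 1 read in all. Another 11 had 23 to 67 reads and also failed the filter on low counts. This left 45 genes for testing, 12 adhesion receptors and 33 with Gpr symbols, of which 24 averaged at least 1 CPM and 21 averaged less. With no filter, Adgrl3, the third latrophilin, was the 1 gene outside these 45 that was called in the knockout contrast, with a log2 change of 3.12 (edgeR adjusted p = 0.0307) on 6, 1 and 2 reads with guide 1, 5, 8 and 4 reads with guide 2 and 0, 1 and 0 reads in GFPsg.

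In the knockout contrast, the mean of both guides against GFPsg, 27 of the 45 tested genes were called at an edgeR adjusted p under 0.05, 12 higher and 15 lower. That is 60% of the tested genes, beside 51% of the 17931 genes tested in the whole table (24.7% higher and 26.3% lower). The median log2 change was -0.02 over the 45 genes and -0.02 over all genes tested. Adhesion receptor genes were called 7 times higher and 2 times lower of 12, with a median of 0.68, whereas genes with Gpr symbols were called 5 times higher and 13 times lower of 33, with a median of -0.18. Among the 6 adhesion receptors of at least 1 CPM, 2 were called higher and 2 lower. The other 5 higher calls were of genes under 1 CPM. Among the 18 genes with Gpr symbols of at least 1 CPM, 4 were called higher and 10 lower. The counts and medians over all tested genes carry a selection. There were 7 genes, among them 4 adhesion receptors, that reached the filter's level of 0.134 CPM in all 3 libraries of a guide but not of GFPsg. Of those 7, 5 were called: Adgrv1, Adgra1, Adgrg3, Adgrg6 and Gpr176. No gene passed in the reverse way. Of the 30 genes above that level in all 3 groups, 22 were called. Changes of at least 2-fold were called for 7 genes higher and 4 lower, against 6.88% and 4.33% of all genes tested.

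Each guide was also set against the same 3 GFPsg libraries. With guide 1, 26 genes were called, 11 higher and 15 lower, against 48.4% of all genes tested (23.8% higher and 24.5% lower). With guide 2, 24 were called, 11 higher and 13 lower, against 45.1% of all genes tested (22.1% higher and 23% lower). Without overlap, all 6 knockout libraries lay above the 3 GFPsg libraries for 10 of the 45 genes and below them for 14, compared with 21.8% and 22.2% of all genes tested. The 2 contrasts share their controls, so the values of both guides are given side by side. The labels do not say that replicates were separate cultures, so each p-value reflects no more than how far these libraries scatter, and that scatter may be technical. In RNA from whole cultures, fewer cells expressing a gene and less RNA per cell cannot be told apart.

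**Figure D1:**
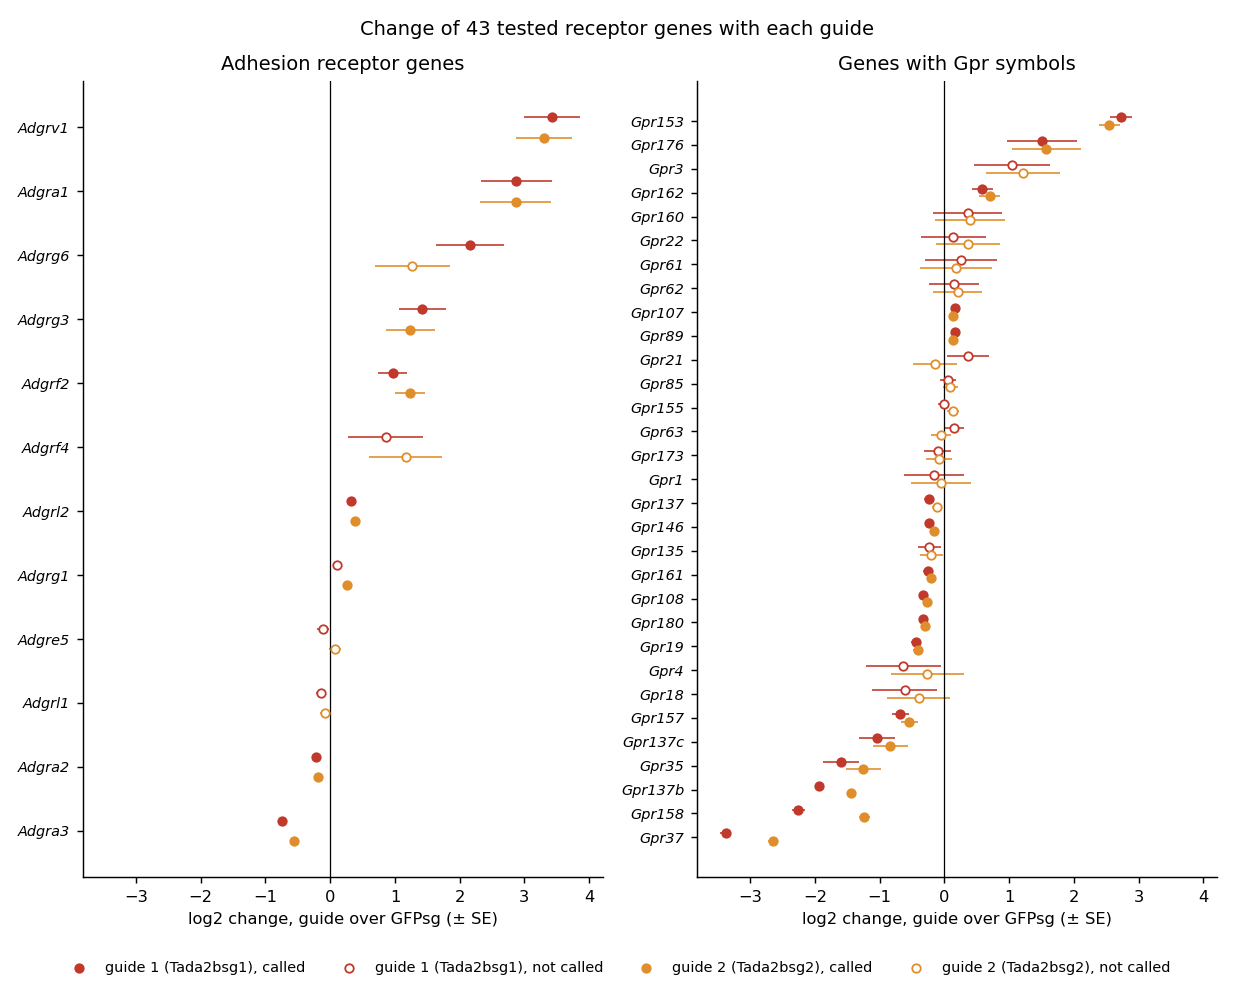
Log2 change over GFPsg (horizontal axis, ± SE) of the 12 adhesion receptor genes (left) and 31 of the 33 genes with Gpr symbols (right) that passed the filter, for guide 1 (red) and guide 2 (orange); filled points were called at an edgeR adjusted p under 0.05. Adgrv1 and Adgra1 stand farthest to the right among adhesion receptors, and Gpr153 farthest to the right and Gpr37 farthest to the left among genes with Gpr symbols.

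Library totals ran from 70.56 to 76.92 M counts, of which 0.0727% to 0.108% fell on the 99 genes. The melanocyte markers Tyr, Tyrp1, Dct, Pmel, Mlana, Mitf and Sox10 were present in every library and all 7 were lower in the knockout contrast, by -2.58 to -1.16 on the log2 scale, with sums of 4973 to 5210 CPM with guide 1, 7032 to 7274 CPM with guide 2 and 20320 to 21120 CPM in GFPsg. Of 12 leukocyte markers 4 were tested, with sums over the list of 7.00 to 7.43 CPM, 6.19 to 6.47 CPM and 3.68 to 3.97 CPM in guide 1, guide 2 and GFPsg, and Ptprc, Itgam and Tyrobp had 0 reads in every library. Of 11 fibroblast and endothelial markers 5 were tested, with sums of 27.1 to 28.3 CPM, 25 to 27.1 CPM and 10.4 to 12.8 CPM, and of 8 epithelial markers 3, with sums of 0.595 to 0.739 CPM, 0.572 to 0.684 CPM and 1.05 to 1.30 CPM, in the same groups. The part of these shifts in the receptor values was not tested.

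Gpr37 showed the largest decrease of the family. It encodes a receptor related to the endothelin receptors, also known as the parkin-associated endothelin receptor-like receptor, and is best known from oligodendrocytes and dopamine neurons. The gene (ENSMUSG00000039904) lies on chr6:25665878-25690729, minus strand, mm10. Its level was 2.67, 2.28 and 2.77 CPM in the guide 1 libraries, 4.03, 4.32 and 4.51 CPM in the guide 2 libraries and 27.5, 26.9 and 26.1 CPM in the GFPsg libraries. No library of either guide came near a GFPsg library, and the guides themselves did not overlap. Relative to GFPsg, Gpr37 fell by 3.38 on the log2 scale with guide 1 and by 2.65 with guide 2, and the knockout contrast gave -3.01 ± 0.06 (SE, edgeR adjusted p = 1.59e-16), 8.06-fold lower. Its relative Gpr37l1 did not pass the filter, with 1, 0 and 2 reads with guide 1, 9, 5 and 4 reads with guide 2 and 1, 1 and 2 reads in GFPsg.

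Gpr158 is a class C orphan receptor of the brain that binds the G protein regulator RGS7 and has been reported as a receptor for glycine. The gene lies on chr2:21367542-21830547, plus strand, and its exons overlap those of Gm13327 on the other strand, so that reads of the pair cannot be told apart without the strand setting of the counting. It stood at 2.03, 2.27 and 1.96 CPM with guide 1, 4.42, 4.52 and 3.77 CPM with guide 2 and 10.3, 9.86 and 9.72 CPM in GFPsg. The 3 groups were fully separate, in the same order as for Gpr37. The change was -2.26 with guide 1 and -1.23 with guide 2 on the log2 scale, and -1.74 ± 0.08 in the knockout contrast (edgeR adjusted p = 4.23e-12). Gpr179, another class C gene, did not pass the filter. Rgs7 itself had 0 reads in every library.

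Gpr137b, a protein of the lysosomal membrane that has been linked to the recruitment of Rag GTPases and mTORC1 to lysosomes, was the most abundant of the 99 genes and fell in both knockout groups. The gene (ENSMUSG00000021306) lies on chr13:13357620-13394014, minus strand. Its level was 103, 106 and 104 CPM with guide 1, 152, 146 and 145 CPM with guide 2 and 413, 391 and 398 CPM in GFPsg. Every knockout library was thus below every GFPsg library, and every guide 1 library below every guide 2 library. The log2 change was -1.94 with guide 1, -1.44 with guide 2 and -1.69 ± 0.03 in the knockout contrast (edgeR adjusted p = 6.38e-17). A transcribed pseudogene copy, Gpr137b-ps, lies on chr13:12615057-12650388. Of the reads of both copies it held 14.8% to 15.2% with guide 1, 13.2% to 14.8% with guide 2 and 11.6% to 12% in GFPsg. It changed by -1.34 ± 0.04 on the log2 scale (edgeR adjusted p = 9.95e-15), less than Gpr137b. How reads were divided between the copies is uncertain, but both were lower in the knockout libraries.

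**Figure D2:**
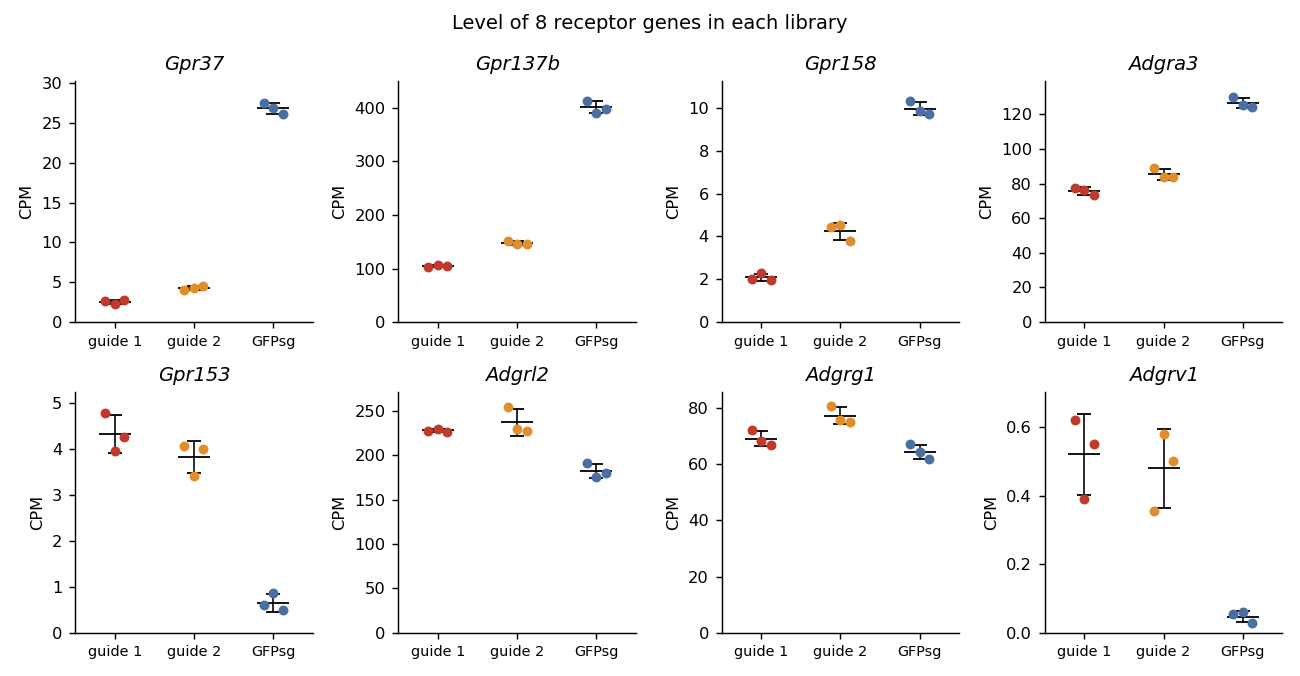
CPM (vertical axes, starting at 0) of 8 genes in each library, with guide 1, guide 2 and GFPsg from left to right; points are libraries and bars give the mean ± SD of 3 libraries. Gpr37, Gpr137b, Gpr158 and Adgra3 were lowest with guide 1 and highest in GFPsg, while Gpr153, Adgrl2 and Adgrv1 were lowest in GFPsg.

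Most of the difference in the family's summed level lay in Gpr137b. The 99 genes together amounted to 727 ± 9.66 CPM with guide 1, 806 ± 27.3 CPM with guide 2 and 1068 ± 30.6 CPM in GFPsg (SD, n = 3 each), so the guides had 68.1% and 75.5% of the GFPsg sum. Without Gpr137b the sums were 623 ± 10.2 CPM with guide 1, 659 ± 23.7 CPM with guide 2 and 667 ± 20.3 CPM in GFPsg, or 93.3% and 98.7% of GFPsg. The 27 adhesion receptor genes summed to 419 ± 5.89, 449 ± 22.5 and 423 ± 17.2 CPM in the guide 1, guide 2 and GFPsg libraries, with overlapping libraries. The 71 genes with Gpr symbols other than Gpr137b stayed lower, at 203 ± 5.3 CPM with guide 1 and 210 ± 1.61 CPM with guide 2, against 244 ± 3.92 CPM in GFPsg. Gpr137b alone made up 14.4% of the family's CPM with guide 1, 18.3% with guide 2 and 37.5% in GFPsg. Adgrl2 made up 31.3% with guide 1, 29.4% with guide 2 and 17.1% in GFPsg, so that a different gene led the family's CPM, which is not scaled for length, in the knockout groups.

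**Figure D3:**
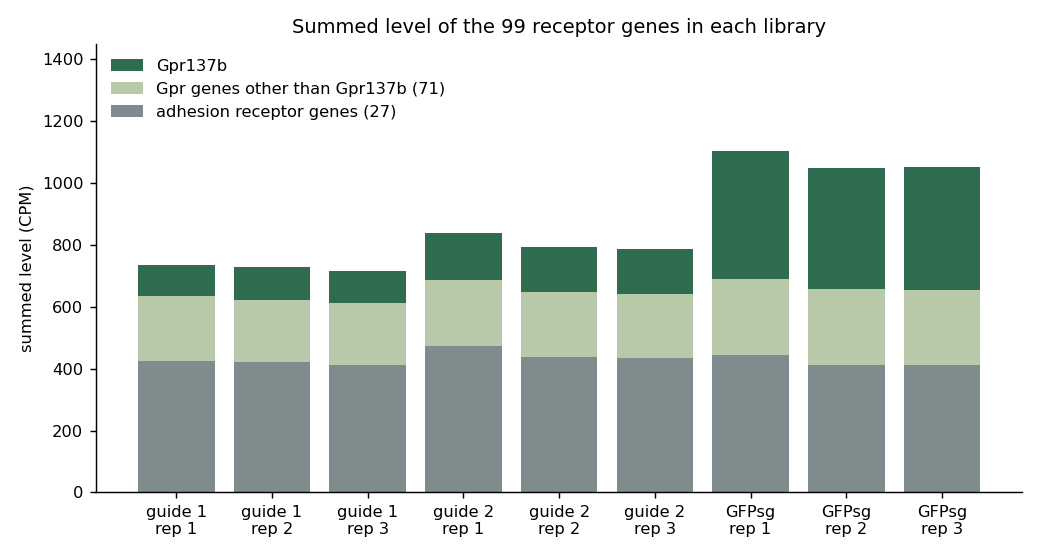
Summed CPM of the 99 genes in each library (vertical axis from 0), guide 1, guide 2 and GFPsg from left to right, divided into Gpr137b, the other genes with Gpr symbols and the adhesion receptor genes. The Gpr137b segment is shorter in all 6 knockout libraries, and the adhesion receptor segment lies between 413 and 475 CPM in every library.

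A group of 8 genes with Gpr symbols was listed here as organelle membrane proteins, with Gpr180 placed among them although its site is less settled. All 8 passed the filter and 7 were called, 5 lower and 2 higher. Beside this stand 51% of all genes tested, 24.7% higher and 26.3% lower. Apart from Gpr137b, the changes in the knockout contrast were under 2-fold. Its relative Gpr137c, at 0.443 ± 0.0992 CPM with guide 1, 0.515 ± 0.168 CPM with guide 2 and 0.916 ± 0.121 CPM in GFPsg, changed by -0.94 ± 0.23 (log2, edgeR adjusted p = 0.00244). Gpr137, the third of these relatives, shares exon bases with Bad on the other strand and had 8.81, 8.55 and 7.65 CPM with guide 1, 9.6, 8.85 and 8.87 CPM with guide 2 and 10.4, 9.43 and 9.71 CPM in GFPsg. Its change of -0.18 ± 0.07 (edgeR adjusted p = 0.033) was called with guide 1 but not with guide 2, and it was lost in 7 of 15 alternatives, with library size alone at an adjusted p of 0.304 and without GFPsg replicate 1 at 0.149.

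Gpr180, a membrane protein linked to TGF-beta signalling in adipocytes, stood at 19.7, 18 and 19.3 CPM with guide 1, 20.2, 18.5 and 19.6 CPM with guide 2 and 22.6, 24.6 and 24.2 CPM in GFPsg. Gpr108, a Golgi protein that many adeno-associated viruses need to enter cells, stood at 25.3, 23.9 and 22.1 CPM, 24.9, 24.1 and 25.2 CPM and 31.1, 31.1 and 27.4 CPM in the guide 1, guide 2 and GFPsg libraries. Both were lower in every knockout library than in every GFPsg library, with log2 changes of -0.31 ± 0.05 (edgeR adjusted p = 4.99e-05) and -0.30 ± 0.05 (edgeR adjusted p = 0.000121). Gpr107, the Golgi relative of Gpr108, went the other way, at 49.4, 48.1 and 48.1 CPM with guide 1, 49.4, 46.8 and 46.4 CPM with guide 2 and 42.0, 45.2 and 42.5 CPM in GFPsg, a log2 change of 0.15 ± 0.04 (edgeR adjusted p = 0.0034). Gpr89, a Golgi pH regulator, had 37.4, 35.5 and 38.2 CPM with guide 1, 35.3, 36.8 and 36.4 CPM with guide 2 and 34.6, 32.0 and 32.4 CPM in GFPsg, and its log2 change was 0.15 ± 0.04 as well (edgeR adjusted p = 0.00669). With library size alone these changes were 0.24 for Gpr107 and 0.23 for Gpr89. Gpr155, a lysosomal cholesterol sensor, had 5.82 ± 0.534 CPM with guide 1, 6.43 ± 0.129 CPM with guide 2 and 5.86 ± 0.404 CPM in GFPsg and was not called (log2 change 0.06, edgeR adjusted p = 0.541).

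Among the adhesion receptors, Adgrl2, Adgra3 and Adgrg1 held most of the counts. Adgrl2, a latrophilin that binds teneurins and FLRT proteins on neighbouring cells, lies on chr3:148815583-148990555, minus strand. It had 227, 230 and 226 CPM with guide 1, 254, 230 and 227 CPM with guide 2 and 191, 176 and 180 CPM in GFPsg, with no overlap between knockout and GFPsg libraries. The log2 change was 0.35 ± 0.04 (edgeR adjusted p = 1.46e-06), 1.27-fold higher. Adgrl1, the first latrophilin, had 19.6 ± 0.736 CPM with guide 1, 20.5 ± 0.778 CPM with guide 2 and 21.6 ± 3.25 CPM in GFPsg and was not called (log2 change -0.11, edgeR adjusted p = 0.212).

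Adgra3, a receptor tied to planar cell polarity through Dishevelled, lies on chr5:49959956-50059006, minus strand, and was the adhesion receptor gene with the clearest decrease. Its level was 77.4, 76.2 and 73.3 CPM with guide 1, 89.2, 83.6 and 83.5 CPM with guide 2 and 130, 125 and 124 CPM in GFPsg. The groups did not overlap, and the log2 change was -0.65 ± 0.03 (edgeR adjusted p = 4e-11). Adgra2, its relative and a coreceptor for Wnt7 in brain endothelium, had 17.4, 17.0 and 16.6 CPM with guide 1, 16.9, 17.7 and 17.1 CPM with guide 2 and 20.7, 19.2 and 19.2 CPM in GFPsg. That difference was -0.20 ± 0.05 on the log2 scale (edgeR adjusted p = 0.0017) and was not called with library size alone (-0.12, adjusted p = 0.0657).

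Adgrg1, the receptor that binds tissue transglutaminase and type III collagen, lies on chr8:94974751-95014217, plus strand. It had 72.1, 68.3 and 66.9 CPM with guide 1, 80.8, 75.9 and 75.3 CPM with guide 2 and 67.1, 64.3 and 61.9 CPM in GFPsg. The guide 2 libraries lay above GFPsg, while the guide 1 libraries overlapped with them. The knockout contrast was 0.18 ± 0.04 (edgeR adjusted p = 0.00093), with 0.10 for guide 1 (adjusted p = 0.0772) and 0.26 for guide 2 (adjusted p = 0.000141), and the difference between the guides of -0.16 missed the threshold (edgeR adjusted p = 0.0611). Adgre5, known as CD97 and a receptor for CD55, had 7.25 ± 0.268 CPM with guide 1, 8.25 ± 1.16 CPM with guide 2 and 7.83 ± 0.334 CPM in GFPsg and was not called (log2 change -0.02, edgeR adjusted p = 0.878). Its exons overlap those of Ddx39 on the other strand.

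The largest increases among adhesion receptors were in genes with few reads. Adgrv1, Adgra1, Adgrg3 and Adgrg6 reached the filter's level of 0.134 CPM in all 3 libraries of a guide but not of GFPsg. They were tested only because of groups in which they were high, and their folds, p-values and lack of overlap carry that selection. Adgrv1 encodes a giant receptor that forms the ankle links between stereocilia of hair cells and is mutated in human Usher syndrome. It lies on chr13:81095068-81633154, minus strand. It had 49, 29 and 43 reads with guide 1, 27, 45 and 36 reads with guide 2 and 4, 4 and 2 reads in GFPsg, or 0.521 ± 0.118, 0.479 ± 0.115 and 0.0473 ± 0.017 CPM in the guide 1, guide 2 and GFPsg groups. The log2 change was 3.36 ± 0.40 (edgeR adjusted p = 2.03e-06), 10.3-fold higher, and it ranged from 3.11 to 3.56 over 14 alternatives. Adgra1, an orphan relative of Adgra2 and Adgra3, had 35, 25 and 47 reads with guide 1, 31, 34 and 38 reads with guide 2 and 4, 9 and 0 reads in GFPsg. All 6 knockout libraries were above GFPsg for both genes, and Adgra1 changed by 2.87 ± 0.51 (log2, edgeR adjusted p = 0.000137), and by 4.00 without GFPsg replicate 2.

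Adgrf2, an orphan of the same subfamily as the surfactant regulator Adgrf5, had 74, 63 and 73 reads with guide 1, 75, 86 and 85 reads with guide 2 and 44, 24 and 31 reads in GFPsg, a log2 change of 1.10 ± 0.20 (edgeR adjusted p = 0.000214). Adgrg3, a receptor of granulocytes whose gene at chr8:95017692-95045250 directly neighbours Adgrg1, had 45, 27 and 31 reads with guide 1, 21, 39 and 28 with guide 2 and 16, 8 and 11 in GFPsg. It changed by 1.33 ± 0.33 (edgeR adjusted p = 0.00287). Adgrg6, which drives myelination by Schwann cells, had 13, 16 and 11 reads with guide 1, 6, 9 and 6 with guide 2 and 4, 2 and 2 in GFPsg, and changed by 1.71 ± 0.50 (edgeR adjusted p = 0.00829). No knockout library overlapped with GFPsg for these 3 genes, but with guide 2 alone the test of Adgrg6 missed the threshold (adjusted p = 0.085). Adgrf4 averaged 0.147 CPM with guide 1, 0.184 CPM with guide 2 and 0.0816 CPM in GFPsg and was not called (log2 change 1.01, edgeR adjusted p = 0.112).

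Among genes with Gpr symbols, Gpr153 had the largest increase. It encodes an orphan receptor, and its closest relative is Gpr162. The gene lies on chr4:152274232-152285337, plus strand. It had 4.79, 3.96 and 4.27 CPM with guide 1, 4.06, 3.42 and 4.0 CPM with guide 2 and 0.608, 0.87 and 0.49 CPM in GFPsg. The lowest knockout library was several times above the highest GFPsg library, the log2 change was 2.64 ± 0.16 (edgeR adjusted p = 2.06e-10) and the fold 6.24. Gpr162 also rose, at 2.76, 2.77 and 2.54 CPM with guide 1, 2.91, 2.72 and 3.11 CPM with guide 2 and 2.3, 1.75 and 1.3 CPM in GFPsg, a log2 change of 0.65 ± 0.14 (edgeR adjusted p = 0.00114). Its knockout libraries did not overlap with GFPsg, and the GFPsg libraries were more spread than those of either guide.

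Gpr176, a receptor of the circadian clock in the suprachiasmatic nucleus, had 22, 18 and 14 reads with guide 1, 12, 23 and 20 with guide 2 and 2, 11 and 4 in GFPsg. This gene, too, reached the filter's level of 0.134 CPM in all 3 libraries of a guide but not of GFPsg, and carries that selection. Its log2 change of 1.54 ± 0.48 (edgeR adjusted p = 0.013) was lost without GFPsg replicate 1 (1.12, adjusted p = 0.0783) and without GFPsg replicate 3 (1.35, adjusted p = 0.0643), and was 2.50 without GFPsg replicate 2. Gpr19, an orphan receptor of brain and dividing cells, had 7.04, 6.98 and 6.39 CPM with guide 1, 7.16, 6.9 and 6.85 CPM with guide 2 and 9.62, 9.58 and 8.52 CPM in GFPsg. Gpr157, a receptor of primary cilia in radial glia, had 2.48, 2.04 and 2.81 CPM, 2.41, 2.84 and 2.83 CPM and 4.26, 3.73 and 3.75 CPM in the guide 1, guide 2 and GFPsg libraries. Both were lower in all 6 knockout libraries, with log2 changes of -0.42 ± 0.07 (edgeR adjusted p = 3.78e-05) for Gpr19 and -0.61 ± 0.11 (edgeR adjusted p = 0.000156) for Gpr157.

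Smaller decreases were measured for Gpr161 and Gpr146. Gpr161, a ciliary receptor that holds back Hedgehog signalling, had 11.1, 10.6 and 11.2 CPM with guide 1, 11.6, 12.1 and 10.5 CPM with guide 2 and 13.7, 12.6 and 13.0 CPM in GFPsg, and Gpr146, which governs plasma cholesterol through the liver, had 17.0, 16.1 and 15.5 CPM, 16.6, 17.3 and 17.7 CPM and 18.8, 18.8 and 19.9 CPM in the same order of groups. The log2 changes were -0.23 ± 0.06 (edgeR adjusted p = 0.00334) for Gpr161 and -0.20 ± 0.05 (edgeR adjusted p = 0.00264) for Gpr146. With library size alone neither was called (adjusted p = 0.0651 and 0.0721). Gpr135 and Gpr63, orphan receptors at 2.32 and 1.62 CPM in GFPsg, were not called, with log2 changes of -0.22 (edgeR adjusted p = 0.261) and 0.05 (edgeR adjusted p = 0.772). The other genes of this group that were tested and not called, Gpr1, Gpr160, Gpr21 and Gpr22, had log2 changes between -0.10 and 0.38.

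Receptors sorted by what they sense were mostly not measurable. Of 10 receptors for lipids and metabolites, 2 passed the filter. Gpr35, a receptor of gut and immune cells for which kynurenic acid has been proposed as a ligand, had 25, 33 and 21 reads with guide 1, 35, 30 and 33 with guide 2 and 90, 79 and 51 in GFPsg. Its knockout and GFPsg libraries did not overlap, and it changed by -1.42 ± 0.23 (log2, edgeR adjusted p = 5.4e-05). Gpr18 was not called (log2 change -0.51, edgeR adjusted p = 0.348). Gpr4, a receptor that senses protons, was not called either (log2 change -0.45, edgeR adjusted p = 0.477).

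Of the 6 receptors that raise cAMP without a ligand, Gpr3, Gpr61 and Gpr62 passed the filter and none was called by edgeR, with log2 changes of 1.13 (adjusted p = 0.081), 0.22 (adjusted p = 0.741) and 0.18 (adjusted p = 0.698). In the SREB family of conserved brain receptors, Gpr85 had 4.43 ± 0.418 CPM with guide 1, 4.55 ± 0.482 CPM with guide 2 and 4.26 ± 0.578 CPM in GFPsg. Neither Gpr85 (log2 change 0.08, edgeR adjusted p = 0.582) nor Gpr173 (log2 change -0.09, edgeR adjusted p = 0.691) was called, and Gpr27 did not pass.

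Levels of different genes were compared per kilobase of annotated exon. In GFPsg, Gpr137b stood first at 79.7 ± 2.21 CPM per kilobase, followed by Adgra3 at 15.6 ± 0.35, Adgrl2 at 12.8 ± 0.559, Gpr180 at 12.7 ± 0.542, Adgrg1 at 11.9 ± 0.485 and Gpr108 at 10.4 ± 0.744 CPM per kilobase (SD, n = 3). Adgrl2 and Gpr180, and Gpr180 and Adgrg1, differed by less than the sum of their SDs. Gpr137b also led with guide 1, at 20.8 CPM per kilobase, and with guide 2, at 29.4 CPM per kilobase, but the next place passed to Adgrl2, at 16 and 16.7 CPM per kilobase with guide 1 and guide 2. Gpr37 was at place 23 with guide 1 and 20 with guide 2, against place 8 in GFPsg, and its level was 0.424, 0.706 and 4.42 CPM per kilobase in the guide 1, guide 2 and GFPsg groups. Gpr153 was at place 16 with guide 1 and 17 with guide 2, against place 25 in GFPsg. For the 24 genes of at least 1 CPM, the coefficient of variation between libraries of a group had a median of 4.74%, 4.54% and 4.45% in guide 1, guide 2 and GFPsg. It reached 19.4% and 20.7% for Gpr135 with guide 1 and guide 2, and 29.7% for Gpr153 and 28% for Gpr162 in GFPsg.

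**Figure D4:**
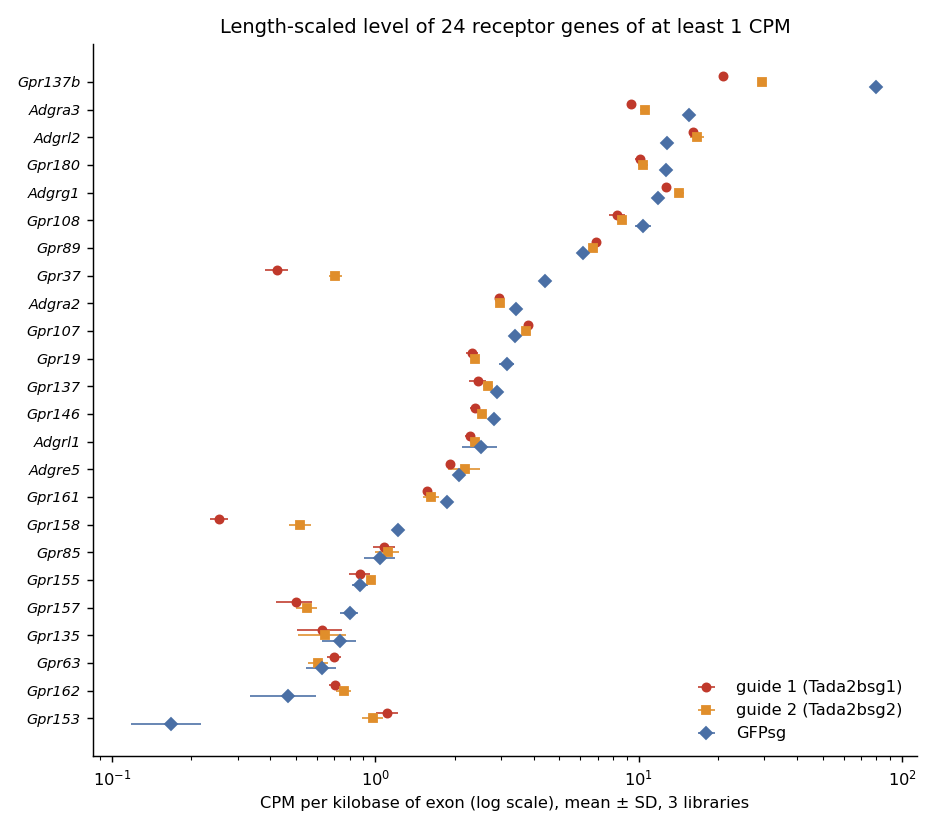
CPM per kilobase of exon (horizontal log axis, mean ± SD of 3 libraries) of the 24 genes that averaged at least 1 CPM, ordered by their level in GFPsg (blue), with guide 1 (red) and guide 2 (orange). Gpr137b is highest in all 3 groups, and the points of both guides lie clearly below GFPsg for Gpr37, Gpr158 and Gpr137b and clearly above it for Gpr153.

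The guides were then compared with each other. Guide 1 was below guide 2 in 4 of the 45 tested genes and above it in 0 at an edgeR adjusted p under 0.05, while 3.68% of all genes tested were called between the guides, 1.02% higher and 2.66% lower with guide 1. At an unadjusted p under 0.05 the counts were 5 lower and 0 higher, and DESeq2 called 5 lower and 0 higher. Gpr158 differed most, by -1.02 ± 0.10 on the log2 scale (edgeR adjusted p = 9.61e-06), with guide 1 at 2.09 ± 0.163 CPM and guide 2 at 4.23 ± 0.407 CPM. Gpr37 differed by -0.73 ± 0.09 (edgeR adjusted p = 7.7e-05), and Gpr137b by -0.50 ± 0.04 (edgeR adjusted p = 6.51e-07). These are the same 3 genes that had the largest decreases among the 24 genes of at least 1 CPM, and in each the libraries of guide 1 were all below those of guide 2.

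Adgra3 differed between the guides by -0.18 ± 0.04 (edgeR adjusted p = 0.0216). This call was lost without guide 1 replicate 2 (-0.18, adjusted p = 0.0838) or replicate 3 (-0.15, adjusted p = 0.164) and without guide 2 replicate 1 (-0.15, adjusted p = 0.072) or replicate 2 (-0.19, adjusted p = 0.0524). Over its 16 alternatives the adjusted p ran from 0.00117 to 0.164. Of the 24 genes of at least 1 CPM, 20 had a negative difference, called or not. Over all 12818 genes averaging at least 1 CPM, the median difference was 0.002. The share of those with a negative difference was not counted. All 7 melanocyte markers were also lower with guide 1 than with guide 2, by -0.66 to -0.44 on the log2 scale, the highest edgeR adjusted p being 7.28e-06. Whether the receptor differences go with that shift was not tested.

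**Figure D5:**
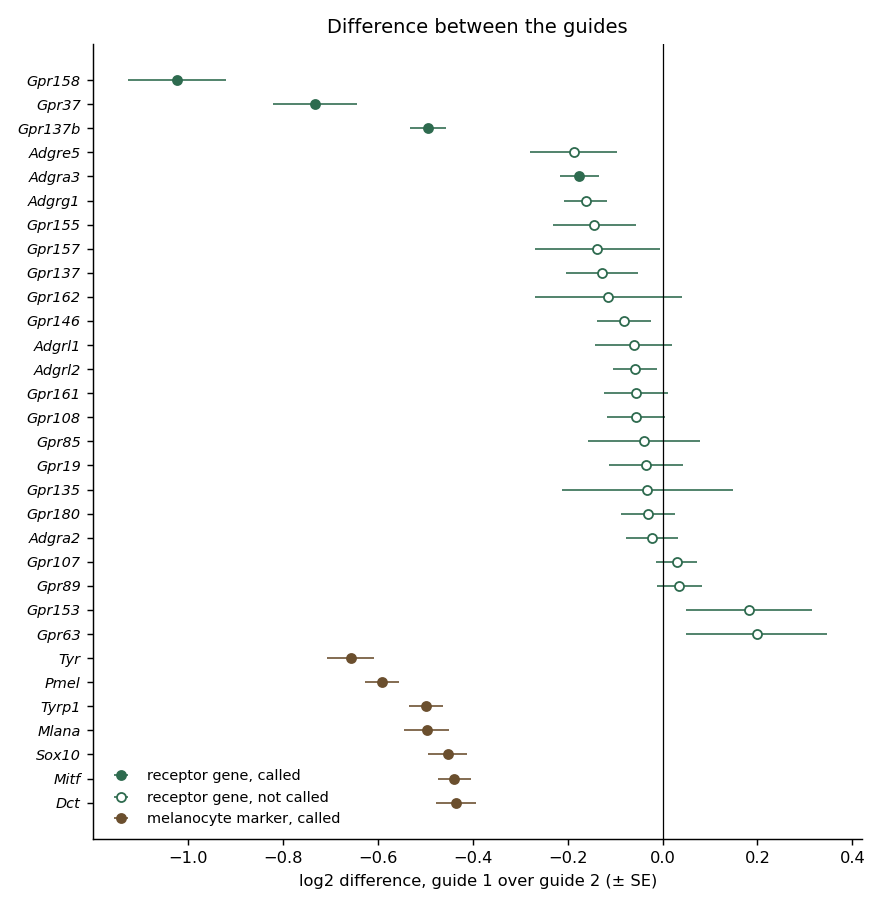
Log2 difference of guide 1 over guide 2 (horizontal axis, ± SE) of the 24 receptor genes of at least 1 CPM (green) and the 7 melanocyte markers (brown); filled points were called at an edgeR adjusted p under 0.05. Gpr158, Gpr37 and Gpr137b lie farthest left among the receptor genes, and all 7 markers lie between -0.66 and -0.44.

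The cells' other signalling genes were followed with 8 lists of genes, grouped by function. The counts of called genes below stand beside 51% of all genes tested in the knockout contrast, 24.7% higher and 26.3% lower. Of the 16 G protein alpha subunits, 13 were tested, 2 higher, 4 lower and 7 not called in the knockout contrast, with a median log2 change of -0.01. Gnao1, the subunit abundant in neurons, had 18.3 ± 1.00 CPM with guide 1, 22 ± 1.85 CPM with guide 2 and 31.3 ± 1.26 CPM in GFPsg (log2 change -0.64 ± 0.05, edgeR adjusted p = 2.31e-08). Gnaq, which activates phospholipase C beta, changed by -0.34 (edgeR adjusted p = 1.8e-06), and Gnai2, which inhibits adenylyl cyclase, by 0.31 (edgeR adjusted p = 6.39e-07). Gnat2, the cone transducin, changed by 1.29 (edgeR adjusted p = 3.05e-06) at a low level of 2.34 ± 0.273 CPM with guide 1, 2.10 ± 0.0195 CPM with guide 2 and 0.903 ± 0.235 CPM in GFPsg.

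Beta and gamma subunits form the other part of a G protein. Of 15 tested of 17, 1 was higher, 8 were lower and 6 were not called, with a median of -0.20. Over all genes tested, 24.7% were called higher and 26.3% lower. Gng12 had 106 ± 1.65 CPM with guide 1, 128 ± 3.30 CPM with guide 2 and 228 ± 4.42 CPM in GFPsg (log2 change -0.97 ± 0.03, edgeR adjusted p = 4.83e-14). Gng7 changed by -0.85 (edgeR adjusted p = 5.62e-09), Gnb4 by -0.44 (edgeR adjusted p = 2.03e-07) and Gnb5, the subunit that pairs with RGS7, by -0.48 (edgeR adjusted p = 1.13e-06). Gng12 and Gng7 were also lower with guide 1 than with guide 2, with edgeR adjusted p-values of 0.000263 and 0.0108 between the guides.

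Of 10 receptor kinases and arrestins, which switch active receptors off, 7 were tested, 4 higher, 2 lower and 1 not called, with a median of 0.15. Sag, the rod arrestin, changed by 1.52 (edgeR adjusted p = 1.45e-05), Grk4 by 1.04 (edgeR adjusted p = 0.00154) and Grk5 by -0.33 (edgeR adjusted p = 0.000123). Grk2, the most general of these kinases, had 47.9 ± 0.728 CPM with guide 1, 49.5 ± 2.08 CPM with guide 2 and 44.0 ± 1.65 CPM in GFPsg (log2 change 0.15, edgeR adjusted p = 0.0045). RGS proteins, which speed up GTP hydrolysis by alpha subunits, were tested for 8 of 21 genes, 2 higher, 3 lower and 3 not called, with a median of -0.04. Rgs10 changed by -0.62 (edgeR adjusted p = 9.76e-08), Rgs12 by -0.38 (edgeR adjusted p = 0.000106), Rgs14 by -0.94 (edgeR adjusted p = 0.00168) and Rgs16 by 0.62 (edgeR adjusted p = 1.53e-05).

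Of 14 adenylyl cyclases and phospholipases C beta, the effector enzymes, 10 were tested, 1 higher, 3 lower and 6 not called, with a median of -0.06. Adcy2 had 0.836 ± 0.145 CPM with guide 1, 1.22 ± 0.36 CPM with guide 2 and 3.27 ± 0.517 CPM in GFPsg (log2 change -1.70 ± 0.16, edgeR adjusted p = 1.4e-07). Adcy7, a cyclase stimulated by beta and gamma subunits, changed by 0.22 (edgeR adjusted p = 0.000519), Adcy6 by -0.26 (edgeR adjusted p = 0.00315) and Adcy9 by -0.30 (edgeR adjusted p = 0.00736). The 3 Celsr genes, adhesion receptors named by another root, were all tested. Celsr2, a cadherin of planar cell polarity, had 6.92 ± 0.443 CPM with guide 1, 8.18 ± 0.740 CPM with guide 2 and 10.4 ± 1.20 CPM in GFPsg (log2 change -0.46 ± 0.08, edgeR adjusted p = 0.000111), and Celsr1 and Celsr3 were not called (edgeR adjusted p = 0.667 and 0.973).

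Genes listed for reported ligands of these receptors were tested for 12 of 24, 6 higher, 3 lower and 3 not called, with a median of 0.74 beside -0.02 over all genes tested. The shares called over all genes tested were 24.7% higher and 26.3% lower. Tgm2, the transglutaminase that binds ADGRG1, had 9.95 ± 0.581 CPM with guide 1, 8.09 ± 0.703 CPM with guide 2 and 0.389 ± 0.0655 CPM in GFPsg (log2 change 4.52 ± 0.12, edgeR adjusted p = 7.4e-15). Col4a1, a chain of the type IV collagen that binds ADGRG6, had 10.9 ± 0.975 CPM with guide 1, 11.3 ± 0.662 CPM with guide 2 and 3.74 ± 0.114 CPM in GFPsg (log2 change 1.57 ± 0.08, edgeR adjusted p = 2.05e-11). Flrt3, the membrane protein that binds latrophilins, had 30.9 ± 0.442 CPM with guide 1, 30.6 ± 0.414 CPM with guide 2 and 16.6 ± 0.827 CPM in GFPsg (log2 change 0.89 ± 0.04, edgeR adjusted p = 2.37e-11). Sparcl1, a secreted matricellular protein that was on the list, changed by -1.49 (edgeR adjusted p = 1.81e-15). No gene of the list of 3 oxysterol enzymes passed the filter.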

How the data were processed

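RNA was sequenced from 9 libraries in 3 groups of 3. Per the labels, libraries came from the KAPA Stranded mRNA-Seq kit after RNeasy extraction. The deposited values are raw counts per Ensembl gene with no normalization by the authors, made with bcl2fastq, HISAT2 and HTSeq on mm10 per the submitters' processing notes. For versions, annotation release and strand setting, the entry is: not given in the sources used here. Reads that map equally well to several places are left out in HTSeq's default mode, which lowers genes with close copies, and 28 of the 99 genes overlap exons of a gene on the other strand.

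Symbols, types and coordinates came from GENCODE M21, which matched 54723 of 54752 identifiers. Receptor genes, role groups and all gene lists were chosen with earlier results of these data known. Counts were filtered with filterByExpr (count minimum 10, 17931 genes kept), scaled by TMM and tested in 1 edgeR 4.0.16 quasi-likelihood fit of all 9 libraries (R 4.3.3), with Benjamini-Hochberg adjustment over all genes tested and an adjusted p under 0.05 as a call. There were 4 contrasts: both guides averaged over GFPsg (the knockout contrast), guide 1 over GFPsg, guide 2 over GFPsg, and guide 1 over guide 2. SE is the log2 change over the square root of F. CPM used TMM-scaled library sizes. Sequences are RefSeq promoter windows of GRCm38.p6. The calculation was tested on simulated counts in which few genes changed. That setting does not check the scaling where many genes change, as in the knockout contrast here.

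Genes chosen by rule for naming were the 24 with the largest knockout change among those averaging at least 1 CPM, the 6 with the highest level per kilobase in GFPsg, the 5 with the largest difference between guides, and up to 4 per partner list with the lowest p. Some of these are given by group means only, and many partner genes by log2 change and adjusted p without their level. Other receptor genes that were called are given as well, and those not called by group; a few genes are counted but not reported here by name. Alternatives were other scalings, no filter, a filter at a mean of 1 CPM, DESeq2 1.42.0, a replicate block, only the 2 groups compared, and each library left out.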

Additional observations from a re-analysis of the deposited data

Results flagged for a closer look

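In 4 receptor genes the change with guide 1 differed from the change with guide 2, by edgeR's test of guide 1 minus guide 2. The log2 differences were -1.02 for Gpr158 (adjusted p = 9.61e-06), -0.73 for Gpr37 (adjusted p = 7.7e-05), -0.50 for Gpr137b (adjusted p = 6.51e-07) and -0.18 for Adgra3 (adjusted p = 0.0216). All 4 were lower than GFPsg with both guides and lower with guide 1 than with guide 2, without overlap of the libraries. Over 16 alternatives each, the difference ranged from -1.10 to -0.97 for Gpr158, from -0.79 to -0.65 for Gpr37 and from -0.51 to -0.48 for Gpr137b, and was called in every one. For Adgra3 it was lost in 4 of 16. Groups of 3 libraries were too small for a test of single libraries that stand apart.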

How the results depend on the processing

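Of 582 alternative values of 39 single-gene results, 556 kept their direction and side of the threshold, 18 lost the call and 8 changed sign, and 28 of the 39 results kept both throughout. The 8 were values near 0 of 4 genes that were never called in the knockout contrast: Adgre5 (0.0671 with library size alone, and -0.0638 to 0.0349 with 1 library left out), Adgrl1 (-0.176 to 0.0209 with 1 library left out), Gpr63 (-0.0322 to 0.152) and Gpr85 (-0.0324 to 0.171). The calls lost included those of Gpr137, Gpr176, Adgra2, Gpr146, Gpr161 and of Adgra3 between the guides. With only genes averaging at least 1 CPM, which leaves 24 receptor genes, 6 were called higher in the knockout contrast (12 with the standard filter), 17 were called with guide 1 (26), 5 of them higher (11), and 6 were called higher with guide 2 (11). With library size alone in place of TMM, 23 were called in the knockout contrast, 12 higher and 11 lower, and the share of higher genes among all called genes was 63.3%, against 48.4% with TMM, with a median log2 change of 0.07 against -0.02. DESeq2 called 26. Leaving out 1 library at a time gave 25 to 28 calls in the knockout contrast, 24 to 27 with guide 1, 19 to 24 with guide 2 and 3 to 5 between the guides. With the replicate number as a block, 27 genes were called in the knockout contrast, 27 with guide 1, 24 with guide 2 and 5 between the guides. Over all genes tested, the block gave 55.4% called in the knockout contrast, against 51% without it. Between the guides it gave 9.51%, against 3.68% without it. The numbers were not taken as pairs in the main fit. Libraries of different groups were correlated on each gene's deviation from its group mean on the log2 scale, not on the levels themselves. Same-numbered libraries gave correlations of 0.0389 to 0.312, all above 0, with 4 of 9 over 0.1. Other numbers gave -0.273 to 0.149, with 2 of 18 over 0.1. Whether the numbers mark a shared batch was not tested. Depth limits the 21 tested genes under 1 CPM, whose calls rest on few reads.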
